A study of Mus musculus with 4 samples.

Results

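The T cell receptor complex and the molecules that signal with it were followed through 10 genes in skin RNA of bleomycin (BLM)-treated mice, out of 24441 genes in the deposited table. The genes were taken by symbol: the CD3 chains Cd3d, Cd3e, Cd3g and Cd247, the kinases Lck and Zap70, the surface receptors Cd4, Cd2 and Thy1, and the cytokine receptor subunit Il2rb. All 10 were found, each in 1 row. The 4 libraries came from female C57BL/6 mice of 8 weeks, all given subcutaneous BLM, a cytotoxic drug that causes skin fibrosis, every other day over 28 days, and the RNA is of lesional skin. The WT group (wild type, n = 2) and the GSDMD KO group (GSDMD-/-, n = 2) differ in genotype by their labels, and saline-treated skin was not analysed here. GSDMD, gasdermin D, forms the membrane pores of pyroptosis. The KO mice were made by injecting Cas9 mRNA and guide RNA into fertilized eggs, so the gene was targeted in every tissue and not in T cells alone. The comparison asks which T cell transcripts differed between the genotypes at the end of BLM treatment.

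T cells recognise antigen through a receptor whose variable chains have almost no cytoplasmic part, and the CD3 chains carry the signal into the cell. Lck, held at the membrane by the co-receptors CD4 or CD8, phosphorylates tyrosine motifs of the CD3 chains, and Zap70 docks on these motifs and passes the signal on to the adaptors Lat and Lcp2. In mouse skin such transcripts can come from dendritic epidermal T cells, which carry a gamma delta receptor and sit among keratinocytes, and from alpha beta T cells of the dermis. Some of the genes are not limited to T cells: Thy1 is also made by fibroblasts, Cd2 and Il2rb by NK cells, and Cd4 by some myeloid cells. In whole skin, fewer T cells and less RNA per T cell cannot be told apart.

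Values are FPKM, fragment numbers divided by transcript length and sequencing depth. This division does not correct for differences in RNA composition between libraries, and other scalings were also tried. The FPKM values summed to 448544 to 462251 per library. The size of the steps between low values gave 0.0576 to 0.0782 FPKM as the worth of 1 fragment on 1 kb of transcript, and the floor used here, 3 such fragments, comes to 0.173 to 0.235 FPKM. Gsdmd itself had 14.0 FPKM in WT replicate 1, 18.2 in WT replicate 2, 3.53 in KO replicate 1 and 2.26 in KO replicate 2. The KO libraries differed widely from each other. On the first principal component, with 74.1% of the variance, KO replicate 2 stood at 75.4 and KO replicate 1 at 6.17, against -27.7 and -53.9 for the WT libraries. In KO replicate 2, 10 fibroblast markers summed to 13.3% and 8 endothelial markers to 13.5% of the WT mean, while KO replicate 1 had 186% and 103%. KO replicate 1 held 457 FPKM of 15 hair follicle genes, against 1.76 to 24.6 FPKM in the other libraries. Values of the 10 genes are therefore given by library, replicate 1 first, and gene lists also by their median in each KO library.

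Thy1 was the most abundant of the 10 genes, and the other 9 were rare transcripts, between 0.0586 and 5.51 FPKM. KO replicate 2 was the lowest library for 9 of the 10 genes, Lck being the exception, whereas among the 16298 genes with at least 0.1 FPKM in a pair of libraries it was the lowest in 34.3%. This low place was not particular to the T cell genes, since KO replicate 2 was also the lowest library for 13 of 13 macrophage, 7 of 7 MHC class II, 8 of 8 endothelial and 9 of 10 fibroblast markers. In KO replicate 1, 4 genes were above both WT libraries (Cd3e, Cd3g, Lck and Thy1) and 4 were below both (Zap70, Cd4, Cd2 and Il2rb). The KO values of those same 4 genes, Zap70, Cd4, Cd2 and Il2rb, did not overlap with the WT values, with KO the lower group. This order was found in 20.6% of the 16298 genes. The KO and WT values of the CD3 chains, Lck and Thy1 overlapped.

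**Figure D1:**
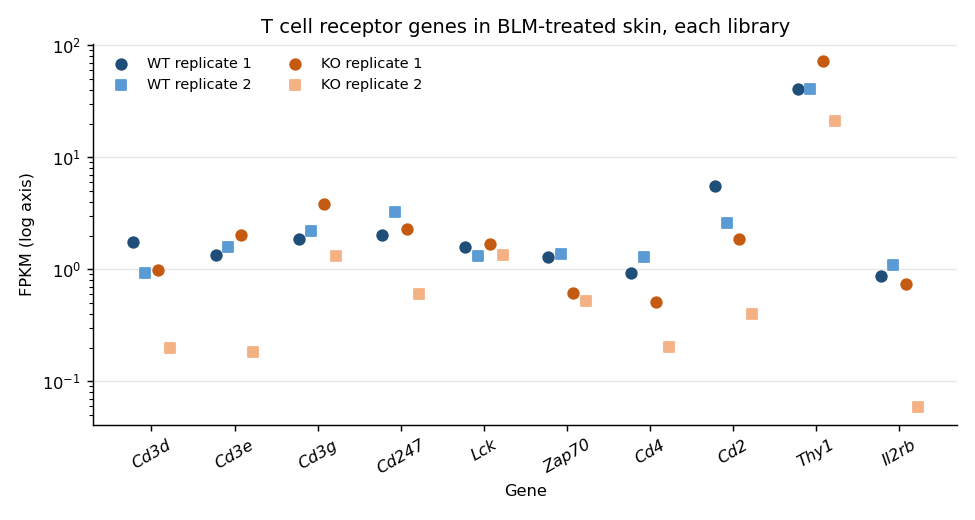
FPKM (log axis) of the 10 T cell genes in each of the 4 libraries; circles are replicate 1 and squares replicate 2, blue for WT and orange for KO. Lck lay within 1.33 to 1.68 FPKM in all libraries, while the KO replicate 2 value of Cd3e was 0.182 FPKM and that of Il2rb 0.0586 FPKM.

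Differences between genotypes were tested with limma on log2(FPKM + 1), a scale that understates changes of low genes, over 13027 genes with 1 FPKM or more in a pair of libraries. Of the 10 genes, 7 were high enough to be tested, and Cd3d, Cd4 and Il2rb were not. A call needed an adjusted p under 0.05 with a log2 fold change beyond 1 in either direction, and 0 of the 7 met this (limma, Benjamini-Hochberg adjustment), with 0% of all tested genes called. Their adjusted p-values ran from 0.284 to 0.969. With an unadjusted p under 0.05 and a log2 fold change under -1, 1 of the 7 passed, Cd2, against 4.14% of all tested genes. Over all tested genes that limit gave 539 lower and 802 higher genes, and 698 lower and 608 higher with median-ratio scaling. The median log2 fold change of the 7 genes was -0.38, with 5 lower and 2 higher, while the median of all tested genes was 0.11. Zap70, among the 5 lower, reached 1 FPKM in the WT pair alone. A gene tested on such values is lower in KO by the filter, and the lists below also hold genes of this kind. Without KO replicate 2 the median of the 7 was 0.12, and without KO replicate 1 it was -0.90. An exact two-sided permutation test of one gene in 2 against 2 libraries cannot give a p below 0.333.

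The genes of 3 CD3 chains lie together in 40.0 kb of chromosome 9 (mm9): Cd3g at 44777655-44788514 on the minus strand, Cd3d at 44789869-44795135 on the plus strand, and Cd3e at 44806826-44817673 on the minus strand. Cd3g and Cd3d point away from each other, with 1355 bases between their starts. Cd247, which encodes the zeta chain, lies apart on chromosome 1 at 167718812-167801284. The 120 bases before each annotated start are shown for every one of the 10 genes found in the promoter table, 9 windows in all, to set the neighbouring CD3 genes beside the other chain and the kinases. Lck has 2 starts, 15.3 kb apart, and Zap70 has 3. They are from the RefSeq promoter table on GRCm38.p6, which held 6 of the 10 genes, and Cd2, Cd4, Thy1 and Il2rb were not among them. Capitals mark GGAAG, which contains the GGAA core of ETS sites, and TGTGGT, a RUNX site, on either strand. GGAA followed by another base was not marked or counted. Of all 32851 windows of this length in the table, 41.0% hold the first and 6.72% the second.

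Cd3g, chr9:44980432-44980551, minus strand: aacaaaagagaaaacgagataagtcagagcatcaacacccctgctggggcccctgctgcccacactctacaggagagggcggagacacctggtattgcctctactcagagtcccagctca
Cd3d, chr9:44981666-44981785, plus strand: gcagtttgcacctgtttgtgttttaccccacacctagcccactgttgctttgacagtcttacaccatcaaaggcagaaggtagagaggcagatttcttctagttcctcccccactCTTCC
Cd3e, chr9:45009612-45009731, minus strand: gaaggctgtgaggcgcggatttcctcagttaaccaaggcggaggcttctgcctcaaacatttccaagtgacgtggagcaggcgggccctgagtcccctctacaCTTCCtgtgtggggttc
Lck, upstream start, chr4:129573642-129573761, minus strand: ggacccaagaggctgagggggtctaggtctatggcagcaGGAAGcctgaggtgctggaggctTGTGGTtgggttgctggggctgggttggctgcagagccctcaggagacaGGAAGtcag
Lck, downstream start, chr4:129558373-129558492, minus strand: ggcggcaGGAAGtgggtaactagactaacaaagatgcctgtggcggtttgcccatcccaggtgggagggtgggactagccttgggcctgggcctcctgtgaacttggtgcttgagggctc
Cd247, chr1:165788561-165788680, plus strand: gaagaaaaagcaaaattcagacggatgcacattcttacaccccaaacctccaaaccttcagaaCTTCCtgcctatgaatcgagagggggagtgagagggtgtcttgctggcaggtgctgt
Zap70, upstream start, chr1:36761678-36761797, plus strand: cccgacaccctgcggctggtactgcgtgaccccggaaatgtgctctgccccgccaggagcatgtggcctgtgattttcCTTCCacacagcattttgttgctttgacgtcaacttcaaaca
Zap70, middle start, chr1:36764395-36764514, plus strand: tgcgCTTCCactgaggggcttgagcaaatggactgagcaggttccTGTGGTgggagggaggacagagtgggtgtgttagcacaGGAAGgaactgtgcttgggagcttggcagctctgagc
Zap70, downstream start, chr1:36778864-36778983, plus strand: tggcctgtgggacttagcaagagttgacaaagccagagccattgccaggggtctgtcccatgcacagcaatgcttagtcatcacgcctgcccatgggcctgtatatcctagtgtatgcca

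The Cd3d, Cd3e and Cd247 windows each hold 1 GGAAG match and the Cd3g window none. The upstream Lck window and the middle Zap70 window each hold 1 TGTGGT and 2 GGAAG in the 120 bases shown. The downstream Lck and upstream Zap70 windows hold 1 GGAAG each, and the downstream Zap70 window holds neither motif. The FPKM values do not separate the starts of a gene. These are matches of letters and not measured binding sites.

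Cd3e, the CD3 epsilon chain, pairs with either delta or gamma and is needed for any T cell receptor at the surface. Cd3e had 1.33 FPKM in WT replicate 1, 1.60 in WT replicate 2, 2.02 in KO replicate 1 and 0.182 in KO replicate 2. KO replicate 1 was the highest library and KO replicate 2 the lowest, so the groups overlapped. The 2 KO libraries differed 11.1-fold, and the WT libraries 1.20-fold. At the estimated depth the KO replicate 2 value rests on about 3.34 fragments, and the other 3 libraries on 32.8 to 39.6. The log2 fold change of Cd3e was -0.38 (limma: standard error, SE, 0.49, adjusted p = 0.679), and 0.30 without KO replicate 2.

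Cd3g, the gamma chain, was nearer to WT in KO replicate 2. It had 1.86 FPKM in WT replicate 1, 2.19 in WT replicate 2, 3.81 in KO replicate 1 and 1.31 in KO replicate 2. KO replicate 1 stood at 1.88 times the WT mean and KO replicate 2 at 0.646 times, so the WT values lay between them. The fitted log2 fold change was 0.14 (limma: SE 0.41, adjusted p = 0.863) and turned to -0.39 without KO replicate 1. The ratio of Cd3g to Cd3e was 1.39, 1.37 and 1.88 in WT replicates 1 and 2 and KO replicate 1, and 7.18 in KO replicate 2, where it rests on at most 17.1 fragments of Cd3g and about 3.34 of Cd3e.

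Cd3d, the delta chain, had 1.76 and 0.935 FPKM in the WT pair against 0.988 and 0.200 FPKM in the KO pair. KO replicate 1 lay between the WT libraries, and KO replicate 2 was the lowest with about 3.38 fragments. The log2 difference between group means was -0.58 on the log2(FPKM + 1) scale, and -0.22 without KO replicate 2.

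Cd247 encodes the zeta chain, which carries most of the phosphorylation motifs of the complex. Its values were 2.03 FPKM in WT replicate 1, 3.23 in WT replicate 2, 2.29 in KO replicate 1 and 0.600 in KO replicate 2. Again KO replicate 1 was between the WT values and KO replicate 2 lay below them. The log2 fold change was -0.64 (limma: SE 0.43, adjusted p = 0.445), and -0.12 without KO replicate 2. Exons of Cd247 overlap Pou2f1 on the opposite strand and Gm16565 on the same strand, and whether the counting used strand is not given in the sources used here. Summed, the 4 CD3 chains came to 6.98 FPKM in WT replicate 1, 7.95 in WT replicate 2, 9.10 in KO replicate 1 and 2.29 in KO replicate 2. The sum in KO replicate 2 was 30.6% of the WT mean. The sum in KO replicate 1 was above both WT libraries through Cd3g: without it the sums were 5.12 and 5.77 FPKM in the WT pair against 5.30 and 0.982 FPKM in the KO pair. With median-ratio scaling the sum of all 4 chains was 8.81 FPKM in KO replicate 1 and 8.71 FPKM in WT replicate 2. Both sums were added after seeing the data.

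Lck, on chromosome 4 at 129225588-129250885, encodes the kinase that acts first on the CD3 chains. Its level was the most even of the 10 genes, with 1.60 FPKM in WT replicate 1, 1.33 in WT replicate 2, 1.68 in KO replicate 1 and 1.34 in KO replicate 2. The groups overlapped in part, with KO replicate 1 above both WT libraries and KO replicate 2 between them, and the log2 fold change was 0.024 (limma: SE 0.24, adjusted p = 0.963). With median-ratio scaling it was -0.062 and with upper-quartile scaling -0.047, so its sign was not fixed. In KO replicate 2, where the CD3 sum was at 30.6% of the WT mean, Lck stood at 0.914 times the WT mean. The ratio of Lck to Cd3e was 1.20, 0.832 and 0.828 in WT replicates 1 and 2 and KO replicate 1 and 7.35 in KO replicate 2. The last ratio rests on about 3.34 fragments of Cd3e. The ratio of Lck to Zap70 was 1.23 and 0.962 in the WT pair against 2.71 and 2.54 in the KO pair.

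Zap70, on chromosome 1 at 36818643-36839665, encodes the kinase recruited to phosphorylated CD3 chains. It had 1.30 and 1.38 FPKM in the WT pair against 0.619 and 0.526 FPKM in the KO pair. The groups did not overlap, and each group was tight: the mean was 1.34 ± 0.0579 FPKM for WT against 0.573 ± 0.0661 FPKM for KO (SD, n = 2 per group). Zap70 was the gene for which the KO libraries were most alike, with KO replicate 1 at 0.462 and KO replicate 2 at 0.392 times the WT mean. Its log2 fold change was -0.57 (limma: SE 0.23, unadjusted p = 0.0556, adjusted p = 0.298), -0.53 without KO replicate 2 and -0.62 without KO replicate 1. Zap70 reached 1 FPKM in the WT pair alone, so a negative direction was set by the filter. For the same reason it was not tested when either WT library was left out. At most 14.8 to 49.5 fragments lie behind the Zap70 values.

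Cd4, on chromosome 6 at 124814711-124838227, encodes the co-receptor that binds MHC class II and holds Lck. It had 0.933 FPKM in WT replicate 1, 1.30 in WT replicate 2, 0.514 in KO replicate 1 and 0.202 in KO replicate 2. KO was lower in each library, with means of 1.12 ± 0.260 FPKM for WT against 0.358 ± 0.221 FPKM for KO (SD, n = 2 per group). At most 8.01 fragments lie behind the Cd4 value of KO replicate 2. The log2 difference was -0.65, and it stayed between -0.81 and -0.48 when single libraries were left out. With the lower filter of 0.1 FPKM, under which 16298 genes and all 10 members were fitted, Cd4 had an unadjusted p of 0.0232 and an adjusted p of 0.287 by limma. Under that filter Zap70 and Cd2 also had an unadjusted p under 0.05, which makes 3 of the 10 genes against 15.4% of all genes fitted, and 0 of the 10 passed after adjustment. Cd8a, the co-receptor of cytotoxic T cells, had 0.311 and 0.224 FPKM in the WT pair against 0.257 and 0.0503 FPKM in the KO pair, so the groups overlapped.

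Cd2, an adhesion receptor of T and NK cells on chromosome 3 at 101079831-101091862, showed the largest difference among the 10 genes. It had 5.51 FPKM in WT replicate 1, 2.60 in WT replicate 2, 1.87 in KO replicate 1 and 0.403 in KO replicate 2. The groups did not overlap, but the WT libraries differed 2.12-fold from each other and the KO libraries 4.64-fold. At most 5.94 fragments lie behind the Cd2 value of KO replicate 2. The log2 fold change was -1.27 (limma: SE 0.48, unadjusted p = 0.0441, adjusted p = 0.284). It was -0.76 without KO replicate 2 and -0.84 without WT replicate 1. Without KO replicate 1 it was -1.79 with an adjusted p of 0.0275 by limma, in a fit that called 15.2% of all genes, and in the fit without KO replicate 2 0 members and 0.244% of all genes were called. Cd48, the ligand of CD2 in the mouse, had 17.0 and 16.9 FPKM in the WT pair against 8.83 and 1.05 FPKM in the KO pair, a log2 fold change of -2.001 (limma: SE 0.74, adjusted p = 0.281).

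Il2rb, on chromosome 15 at 78310979-78325496, encodes the beta subunit shared by the receptors for IL-2 and IL-15. Its values were 0.874 FPKM in WT replicate 1, 1.10 in WT replicate 2, 0.734 in KO replicate 1 and 0.0586 in KO replicate 2. KO replicate 1 was close to the lower WT library, and the KO replicate 2 value corresponds to at most 2.02 fragments, under the floor of 3. The log2 difference was -0.55, and -0.19 without KO replicate 2. Il2rg, the shared gamma subunit, is used by many leukocytes and was more abundant, at 18.9 and 22.0 FPKM in the WT pair against 9.19 and 3.07 FPKM in the KO pair (log2 fold change -1.73, limma SE 0.48, adjusted p = 0.248). Il15, a ligand, had 4.14 and 3.31 FPKM in the WT pair against 2.46 and 1.26 FPKM in the KO pair. Il2ra, the alpha subunit, was too low to be tested, at 0.0514 to 0.410 FPKM.

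Thy1, a surface glycoprotein on chromosome 9 at 43851467-43856662, had 40.8 FPKM in WT replicate 1, 40.5 in WT replicate 2, 72.1 in KO replicate 1 and 21.3 in KO replicate 2. The WT libraries were almost equal, and the KO libraries lay on either side of them. The log2 fold change was -0.047 (limma: SE 0.58, adjusted p = 0.969), 0.81 without KO replicate 2 and -0.90 without KO replicate 1. At 25.3 to 117 times the level of Cd3e, Thy1 was on another scale than the CD3 chains. The 10 fibroblast markers moved in the same order in the KO libraries, with sums of 335 and 241 FPKM in WT, 535 FPKM in KO replicate 1 and 38.3 FPKM in KO replicate 2, and their part in the Thy1 value was not tested.

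**Figure D2:**
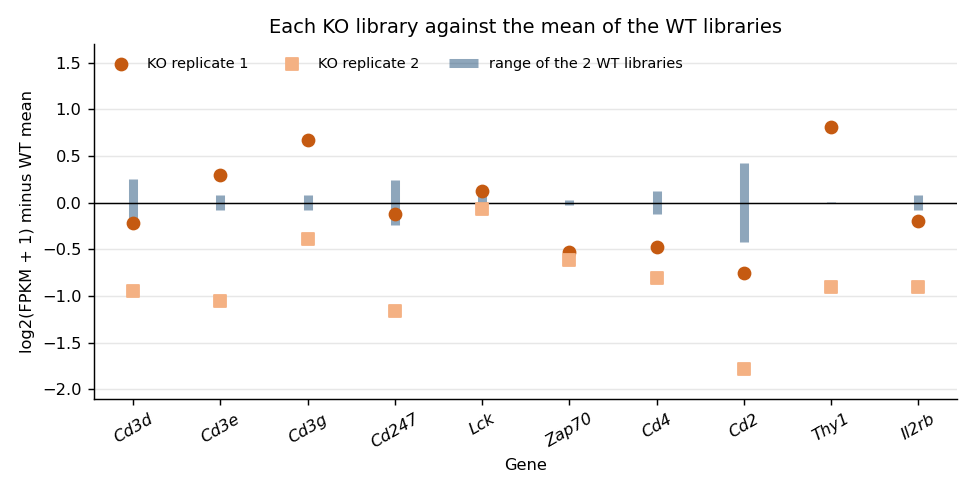
Difference of each KO library from the mean of the WT libraries on the log2(FPKM + 1) scale, for the 10 genes; the blue bars span the 2 WT libraries. For Zap70 the KO libraries lay together at -0.53 and -0.62, whereas for Cd3e they lay at 0.30 and -1.06 and for Thy1 at 0.81 and -0.90.

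The 10 genes were then set beside Ptprc, which encodes CD45, the phosphatase found on all nucleated blood-derived cells and an activator of Lck. Ptprc had 10.6 FPKM in WT replicate 1, 8.93 in WT replicate 2, 3.98 in KO replicate 1 and 1.00 in KO replicate 2 (log2 fold change -1.77, limma SE 0.48, adjusted p = 0.248). Its KO values were thus 40.7% and 10.3% of the WT mean, against 122% and 30.6% for the summed CD3 chains. Per unit of Ptprc, the CD3 chains came to 0.657 and 0.891 in WT and to 2.29 and 2.28 in KO libraries. For the sum of the 9 genes other than Thy1 this ratio was 1.62 and 1.76 in WT and 3.65 and 4.80 in KO libraries. In both ratios the KO values were above the WT values, but so were those of 88.9% of all 16297 other genes when divided by Ptprc, and this order was thus not particular to the T cell genes. Ptprc moved with the other leukocyte genes: 13 macrophage markers summed to 2182 and 2267 FPKM in WT and to 888 and 97.1 FPKM in KO libraries, and 7 MHC class II genes to 1126 FPKM in each WT library and to 681 and 209 FPKM in KO libraries. None of these macrophage or MHC class II genes was at 0 in any library.

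**Figure D3:**
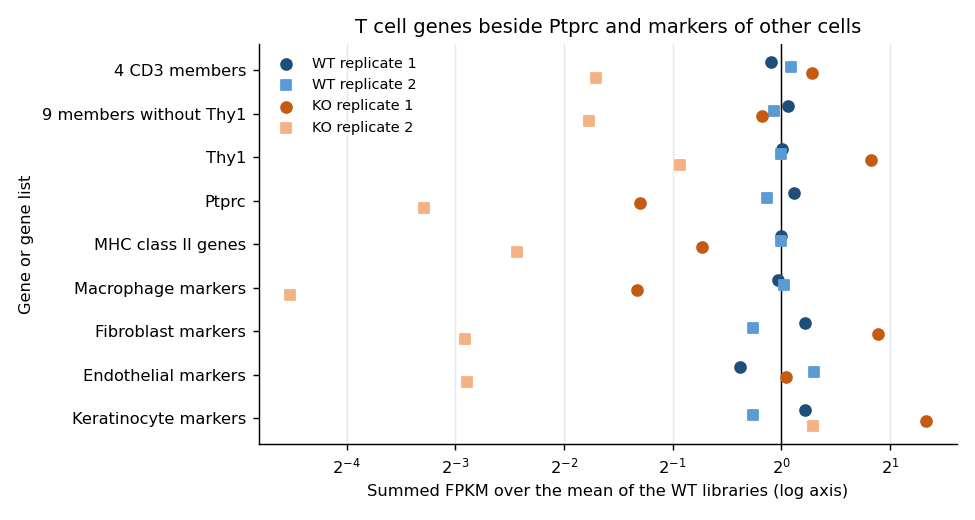
Summed FPKM of the T cell genes, of Ptprc and of marker lists for other cells, divided by the mean of the WT libraries (log axis), in each library. KO replicate 2 had 30.6% of the WT mean for the CD3 chains, 10.3% for Ptprc and 4.37% for the macrophage markers, and KO replicate 1 had 122%, 40.7% and 39.9%.

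Of 24 genes that act downstream of the receptor, 14 were high enough to be tested, with 7 higher and 7 lower in KO mice and a median log2 fold change of 0.012. Its sign depended on the KO library, with a median difference from WT of 0.11 in KO replicate 1 and -0.13 in KO replicate 2. None of the 14 was called by limma after adjustment. Lcp2 (SLP-76) and Vav1, adaptors and exchange factors that are also used by myeloid cells, were 2 of 14 past the unadjusted limit, both lower, where 4.14% of all tested genes were lower at that limit. Lcp2 had 5.73 and 7.12 FPKM in the WT pair against 2.10 and 0.555 FPKM in the KO pair, and Vav1, with 4.56 and 7.89 FPKM in the WT pair against 2.15 and 0.279 FPKM in the KO pair, had the lowest log2 fold change of the list, -1.81 (limma: SE 0.51, adjusted p = 0.248). Lat, the membrane adaptor phosphorylated by Zap70, overlapped between the groups, with 1.66 and 2.41 FPKM in the WT pair against 1.84 and 0.919 FPKM in the KO pair. Rasgrp1, which activates Ras below the receptor, had the highest log2 fold change, 0.63 (limma: SE 0.39, adjusted p = 0.423), and overlapped between the groups at 2.56 and 1.003 FPKM in the WT pair against 2.41 and 3.98 FPKM in the KO pair.

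Among 16 inhibitors and phosphatases of the pathway, 12 were tested, 8 of them lower and 4 higher, with a median log2 fold change of -0.32 (-0.20 in KO replicate 1 and -0.45 in KO replicate 2). Lair1, an inhibitory collagen receptor of many leukocytes, was the lowest at -1.98 (limma: SE 0.33, adjusted p = 0.248), with 4.83 and 5.49 FPKM in the WT pair against 1.02 and 0.205 FPKM in the KO pair. Dgka, a kinase that removes diacylglycerol, was the highest at 1.19 (limma: SE 0.35, adjusted p = 0.248), with 12.6 and 11.6 FPKM in the WT pair against 21.2 and 39.2 FPKM in the KO pair. Csk, the kinase that restrains Lck, had 17.0 and 21.0 FPKM in the WT pair against 18.9 and 16.0 FPKM in the KO pair, and the groups overlapped. Of 24 co-receptor and co-stimulation genes only 9 reached the level for testing, with 6 lower and 3 higher. Their median difference from WT was -0.14 in KO replicate 1 and -1.06 in KO replicate 2. Cd52, a small glycoprotein of leukocytes, was the lowest at -2.17 (limma: SE 0.80, adjusted p = 0.280), with 152 and 130 FPKM in the WT pair against 72.7 and 12.5 FPKM in the KO pair. Tnfrsf18, a member of the TNF receptor family known as GITR, was the highest at 1.63 (limma: SE 0.37, adjusted p = 0.248), with 14.0 and 16.9 FPKM in the WT pair against 35.9 and 69.1 FPKM in the KO pair, in contrast to the CD3 chains in KO replicate 2. The 8 keratinocyte markers summed to 5012 and 3577 FPKM in WT and to 10794 and 5254 FPKM in KO libraries, and their part in this value was not tested.

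For the IL-2 and IL-15 receptor pathway, 12 of 15 genes were tested, and 8 of them were lower and 4 higher, with a median log2 fold change of -0.41 (-0.18 in KO replicate 1 and -0.39 in KO replicate 2). Il2rg was the lowest of them and Il15ra the highest, the latter at 0.41 (limma: SE 0.33, adjusted p = 0.515), with 12.5 and 11.6 FPKM in the WT pair against 12.3 and 21.6 FPKM in the KO pair. Among 22 subset factors and cytokines 11 were tested, 4 lower and 7 higher, with a median of 0.57 (0.36 in KO replicate 1 and 0.78 in KO replicate 2). Foxp3, Tbx21, Ifng, Il4 and Il17a were among those too low to be tested. Gata3, a factor of T helper cells that is also made by keratinocytes, had the highest log2 fold change, 1.66 (limma: SE 0.30, adjusted p = 0.248), with 11.05 and 8.53 FPKM in the WT pair against 27.1 and 39.5 FPKM in the KO pair. Zbtb16 had the lowest, -0.78 (limma: SE 0.32, adjusted p = 0.299), with 6.55 and 6.48 FPKM in the WT pair against 4.59 and 2.41 FPKM in the KO pair. Of the keratinocyte markers, 7 of 8 were higher, with a median of 0.96 (1.54 in KO replicate 1 and 0.47 in KO replicate 2). All 9 tested hair follicle genes were higher, with a median of 2.74 (4.37 in KO replicate 1 and 1.30 in KO replicate 2). What keratinocytes or hair follicles add to the subset factor values was not tested. Of 16 NK cell and cytotoxic genes 5 were tested, each with a negative log2 fold change (median -0.76), where 41.4% of all tested genes had one. The median rested on KO replicate 2, at -1.21 there and -0.047 in KO replicate 1. Il18rap, 1 of the 5, reached 1 FPKM in the WT pair alone, so its direction was set by the filter. The untested genes of this list went both ways, for example Klrd1 with a log2 difference of 0.058 and Klrk1 with -0.61. The chemokine gene Ccl5 was the lowest of the 5 tested, at -1.25 (limma: SE 0.26, adjusted p = 0.248), with 14.7 and 12.8 FPKM in the WT pair against 6.03 and 4.43 FPKM in the KO pair. Xcl1 was the highest, at -0.40 (limma: SE 0.59, adjusted p = 0.723), with 2.68 and 1.41 FPKM in the WT pair against 2.96 and 0.291 FPKM in the KO pair, and the groups overlapped. None of the genes in these lists was called over all tested genes, where 0% was called.

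**Figure D4:**
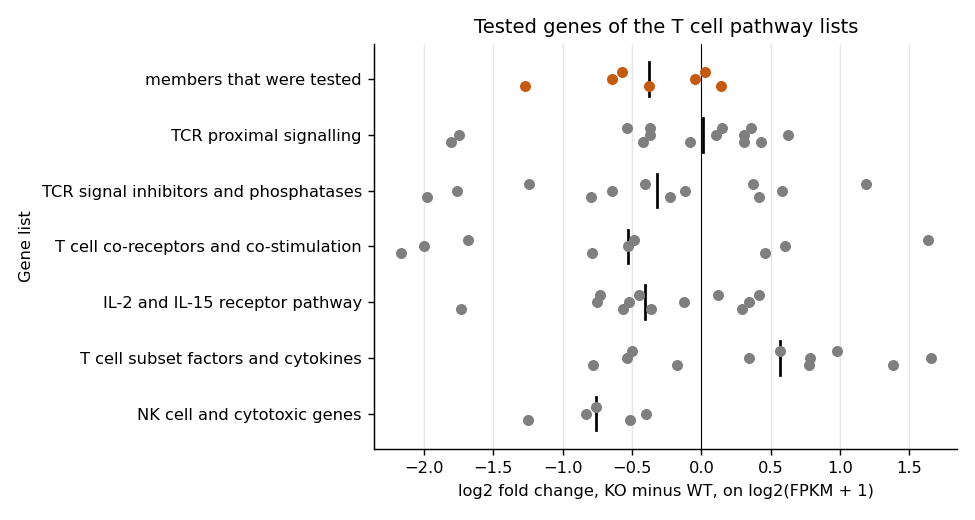
Log2 fold change, KO minus WT on log2(FPKM + 1), of each tested gene in 7 gene lists; black lines are medians. Over both KO libraries the medians were -0.38 for the 7 tested members, 0.012 for the downstream signalling genes, -0.53 for co-receptors and co-stimulation and 0.57 for subset factors, and single genes ran from -2.17 (Cd52) to 1.66 (Gata3).

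The genes whose profile lay nearest to the mean profile of the 4 CD3 chains were sought among 13020 tested genes, by the Euclidean distance of the centred log2 values over 4 libraries. Among the nearest were Mras (distance 0.0436), Myl9 (0.0523), Ly6a (0.0639) and She (0.0796), against a median distance of 1.06. Mras, for example, had 2.86 and 3.21 FPKM in the WT pair against 3.53 and 1.21 FPKM in the KO pair. Over 4 libraries many unrelated genes share an order, and this list is a description only.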

How the data were processed

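RNA-seq of BLM-treated skin from 2 WT and 2 GSDMD KO mice was used, grouped by the sample titles. Per their methods and processing notes, the authors used HISAT2 2.0.1 for alignment to mm9, then counted reads and ran DESeq2. The deposited table is named as counts but holds FPKM values (99.993% of values above 0 are not whole), and the submitters' processing notes also name StringTie 2.0.6. The division by length and depth could thus not be undone, and a count test was not run. Depth was inferred from the spacing of low values in 2710 genes that have 1 GENCODE transcript, 2 kb or longer. Fragment numbers are approximate, use the longest transcript and cover counting only. Coordinates are those of the table, shifted to start from 1.

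Genes with at least 1 FPKM in 2 or more libraries (13027) were fitted on log2(FPKM + 1) with limma 3.58.1 in R 4.3.3, on genotype alone, with a trended prior variance and Benjamini-Hochberg adjusted p-values. The script was tested on simulated data. No source says that the replicate numbers pair mice, and p-values measure the spread between these libraries only. Members and lists were chosen with earlier results of these data known. Named genes are the 10 members, Gsdmd, direct partners of members, the tested gene with the highest and the lowest fold change of each list discussed, and the 5 nearest profiles, of which some genes are not reported here. Other pseudocounts, scalings and filters, a fit without trend, a replicate block and leaving out each library were tried.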

Additional observations from a re-analysis of the deposited data

How the results depend on the processing

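Calls over all genes stayed at 0 under every alternative other than leaving out a library, which gave between 0 and 1920 (1920 without KO replicate 1, 31 without KO replicate 2). In those 2 fits 1 KO library stands alone and is assumed to vary like the WT libraries. The median log2 fold change of the tested members, -0.38, was -1.01 with a pseudocount of 0.1 and ran from -0.90 to 0.12 with single libraries left out. Leaving out libraries also moved Cd3e between -1.06 and 0.30, Cd3g between -0.39 and 0.67, Thy1 between -0.90 and 0.81 and Lck between -0.073 and 0.12. Lck was -0.062 with median-ratio and -0.047 with upper-quartile scaling, which moved the median of all genes from 0.11 to -0.02 and 0.01. The cause was not tested. Genes at an unadjusted p under 0.05 and a log2 fold change beyond 1 numbered 205 lower and 264 higher without WT replicate 2, 1600 lower and 1288 higher without KO replicate 1 and 336 lower without KO replicate 2. Cd247, Zap70, Cd2, Cd3d, Cd4 and Il2rb had a negative value in every setting that gave one, those of the untested genes by differences added after seeing the data. With the replicate block the member median was -0.38 and 0 genes were called, and the block changed no call. Deviations of same-numbered libraries correlated at -0.20, and with the numbers crossed 0 genes were called, an alternative chosen after seeing the data. In KO replicate 2, 5 of the 10 members rest on fewer than 10 estimated fragments, which limits what can be said of their level.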

Other observations

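B cell transcripts were scarcer than those of T cells. Of 9 B cell markers 0 reached the level for testing, and they summed to 1.89 and 4.47 FPKM in WT replicates 1 and 2 and to 1.19 and 0.708 FPKM in KO replicates 1 and 2. Cd79b, a signalling chain of the B cell receptor that parallels the CD3 chains, had 0.808 and 2.38 FPKM in the WT pair against 0.503 and 0.0734 FPKM in the KO pair, and it was picked here after its values were seen.

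Of 11 genes listed for gamma delta T cells of the epidermis 9 were in the table, and 1 was high enough to be tested. That gene, Skint1, is made by keratinocytes and supports the development of these T cells, and had 3.40 and 1.87 FPKM in the WT pair against 7.33 and 9.69 FPKM in the KO pair. Klrk1, the activating receptor NKG2D of NK and gamma delta T cells, had 1.19 and 0.720 FPKM in the WT pair against 0.408 and 0.147 FPKM in the KO pair. Itgae, the integrin chain that holds T cells to the epithelium, had 0.508 and 0.607 FPKM in the WT pair against 0.575 and 0.420 FPKM in the KO pair, where the groups overlapped. Foxp3, the factor of regulatory T cells, had 0.285 and 0.105 FPKM in the WT pair against 0.129 and 0.0471 FPKM in the KO pair, values too low for the test, and the groups overlapped. Klrk1, Itgae and Foxp3 were also picked after their values were seen.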
